A study of Rattus norvegicus with 12 samples.

Results

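The general transcription machinery of the rat kidney was followed here through 67 genes, measured by 109 of the 21575 probes on the array. They are all genes whose single platform symbol begins with Gtf, Polr, Taf or Med followed by a digit, out of 9653 named genes. The probes of a gene were averaged, and every test ran over 18478 features, that is the named genes and the unnamed probes. No filter on low values was applied, so all 67 genes entered every test.

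Kidneys of inbred male Lewis rats were profiled on 12 Agilent arrays, 3 in each of 4 groups. The first group held kidneys taken from brain dead donors at 0 h, not yet transplanted. These donors had undergone a gradual rise of intracranial pressure and 6 h of mechanical ventilation. The second held kidneys labelled normal, from animals with neither treatment stated. The third held grafts from brain dead donors and the fourth grafts from living donors (labelled normal donors), both collected 1 h after transplantation. All grafts had 30 min of operative ischemia and were placed in recipients of the same strain whose right kidney was removed. No group was ventilated and spared brain death, so the effects of the one and the other cannot be told apart. Each array set Cy3-labelled RNA of 1 kidney or graft against Cy5-labelled RNA of a common pool of normal kidneys, and values are log2 ratios of sample over that pool. They carry no level of a transcript, so genes cannot be ranked by abundance, and kidney identity cannot be read from them. In such whole-tissue RNA, fewer cells of a type and less RNA per cell cannot be told apart.

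RNA polymerase I transcribes ribosomal RNA, polymerase II makes messenger RNA and polymerase III makes transfer RNA and other short RNAs. Each needs general factors to find a promoter: SL1 with its TAF subunits for polymerase I, TFIIA to TFIIH and the TFIID complex of TBP and TAFs for polymerase II, and TFIIIC for polymerase III at transfer RNA genes. Mediator is the large complex that carries signals from DNA-bound activators to polymerase II, and its subunits are grouped into a head, a middle, a tail and a kinase module.

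Promoters are shown for 5 genes that differed with donor in both comparisons below, 1 or more from each polymerase system, so that the letters can be set beside the values. Each runs from 250 bases before to 50 bases after the annotated start, on the gene's strand, from RefSeq on GRCr8. Capitals mark a GC box (GGGCGG), an ETS motif (CCGGAAG) or, in Polr3e, a match to the B box of transfer RNA genes, read on either strand. Taf1d lies at chr8:20427726-20428025 on the plus strand, Polr3e at chr1:184897165-184897464 on the plus strand, Polr2g at chr1:215121607-215121906 on the minus strand, Med20 at chr9:20879962-20880261 on the minus strand and Gtf3c1 at chr1:189700799-189701098 on the minus strand.
Taf1d: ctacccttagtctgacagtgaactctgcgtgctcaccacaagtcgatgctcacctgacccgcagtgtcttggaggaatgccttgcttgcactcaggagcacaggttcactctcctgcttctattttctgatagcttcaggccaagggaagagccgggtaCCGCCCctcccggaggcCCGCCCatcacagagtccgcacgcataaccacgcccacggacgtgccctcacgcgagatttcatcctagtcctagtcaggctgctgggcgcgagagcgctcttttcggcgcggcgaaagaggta
Polr3e: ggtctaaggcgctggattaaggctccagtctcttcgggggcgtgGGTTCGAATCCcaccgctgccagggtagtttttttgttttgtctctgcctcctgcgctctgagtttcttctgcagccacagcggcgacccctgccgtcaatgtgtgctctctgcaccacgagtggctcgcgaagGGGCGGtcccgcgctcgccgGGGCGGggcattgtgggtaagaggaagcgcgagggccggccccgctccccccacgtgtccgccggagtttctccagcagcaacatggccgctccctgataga
Polr2g: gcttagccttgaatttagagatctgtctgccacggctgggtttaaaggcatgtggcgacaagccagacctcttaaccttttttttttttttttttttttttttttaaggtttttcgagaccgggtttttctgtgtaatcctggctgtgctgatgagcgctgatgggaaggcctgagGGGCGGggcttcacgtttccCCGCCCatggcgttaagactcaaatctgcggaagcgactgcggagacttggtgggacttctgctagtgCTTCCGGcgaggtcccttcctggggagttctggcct
Med20: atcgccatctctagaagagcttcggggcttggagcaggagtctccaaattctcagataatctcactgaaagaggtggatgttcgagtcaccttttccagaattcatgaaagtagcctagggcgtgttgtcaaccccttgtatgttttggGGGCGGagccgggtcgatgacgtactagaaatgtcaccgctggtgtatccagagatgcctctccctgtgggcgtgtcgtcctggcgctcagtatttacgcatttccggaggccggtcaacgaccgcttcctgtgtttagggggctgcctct
Gtf3c1: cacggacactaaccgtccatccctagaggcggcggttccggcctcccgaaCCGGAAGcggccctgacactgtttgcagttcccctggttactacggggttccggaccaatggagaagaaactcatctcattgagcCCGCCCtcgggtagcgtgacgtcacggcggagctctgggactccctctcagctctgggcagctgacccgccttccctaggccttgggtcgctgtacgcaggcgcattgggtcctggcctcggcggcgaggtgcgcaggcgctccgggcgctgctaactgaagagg

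A RefSeq promoter was matched for 58 of the 67 genes. The GC box stood in 70.7% of them, against 34.9% of all 27457 promoters of the same length and 43.1% of the 19005 that belong to protein-coding genes. The ETS motif stood in 32.8% of the machinery promoters, against 9.22% of all promoters and 11.2% of those of protein-coding genes. An E-box (CACGTG) was found in 22.4%, against 6.65% of all and 7.27% of protein-coding ones. A TATA box (TATAAA) was found in 6.9%, against 14.3% of all and 13.1% of protein-coding ones. A cyclic AMP response element (TGACGTCA) was found in 5.17%, against 1.91% of all and 2.22% of protein-coding ones. The NF-kB motif searched was in 0 of the 58 and in 0.0947% of all promoters. In the machinery promoters no match of 1 of these 7 motifs overlapped a match of another. The machinery promoters had a median GC content of 58.5%, against 52.3% for all promoters and 55.3% for those of protein-coding genes. The B box was in 1 machinery promoter, that of Polr3e, where it began 206 bases before the start, and in 0.127% of all promoters. TFIIIC binds the B box through the subunit that Gtf3c1 encodes. These are matches of letters only, and whether the B box match beside Polr3e belongs to a transfer RNA gene was not examined.

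Before transplantation, brain dead donor kidneys differed from normal kidneys in 10 of the 67 machinery genes (14.9%), against 4.65% of all features (limma, Benjamini-Hochberg adjusted p under 0.05). Of these, 4 were higher (Taf1d, Polr3e, Polr1f and Gtf2h1) against 2.27% of all features, and 6 were lower (Polr2g, Med20, Gtf3c1, Med30, Gtf2e1 and Taf12) against 2.39% of all features. The differences were small: none reached 1 log2 unit, and 3 reached 0.5. Taf1d was the largest, at 1.81-fold of normal kidneys. The median difference of the 67 genes was -0.02 log2 units, against 0.00 over all features, with 27 genes above 0 and 40 below. When named genes alone were tested, 11 machinery genes passed (16.4%), against 6.4% of the 9653 named genes. At an unadjusted p under 0.05 there were 19 genes (28.4%), against 17.7% of all features. Replicates of the groups did not overlap in 7 genes upward (10.9% of all features did so) and in 16 genes downward (13% of all features).

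These calls at 0 h rested on few arrays. The count of machinery genes was 0 without brain dead donor kidney 2, normal kidney 1 or normal kidney 3. In these fits 0.893%, 1.65% and 1.96% of all features passed. It was 1 without brain dead donor kidney 3 or normal kidney 2, against 1.8% and 1.29% of all features. It was 3 without living donor graft 24 and 6 without living donor graft 22, against 3.15% and 3.3% of all features. Without brain dead donor kidney 1 it was 16, against 6.42%. The share of all features thus moved the same way in these fits. The grafts enter because all groups share 1 estimate of spread. None of the 10 genes passed in all 12 fits that left out an array, although each kept its direction. Of the 3 brain dead donor kidneys, replicate 1 lay nearest to the normal kidneys in 8 of the 10 genes. After quantile normalization between arrays 9 genes passed, against 5.88% of all features. Taf1d (adjusted p = 0.0608) and Gtf2e1 (adjusted p = 0.0808) were no longer among them. A fit of these 2 groups alone called 1 gene, against 1.89% of all features.

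At 1 h after transplantation, brain dead donor grafts differed from living donor grafts in 10 of the 67 genes (14.9%), against 6.76% of all features. Higher were 3 genes (Taf1d, Polr3e and Polr1f), against 2.02% of all features. Lower were 7 genes (Polr2g, Med31, Med20, Gtf3c1, Med30, Taf12 and Gtf2e1), against 4.74% of all features. Again none reached 1 log2 unit, and 6 reached 0.5. The median difference of the 67 genes was -0.01 log2 units, against 0.01 over all features. When named genes alone were tested, 11 machinery genes passed (16.4%), against 8.42% of the 9653 named genes. At an unadjusted p under 0.05 there were 20 genes (29.9%), against 21% of all features. Replicates did not overlap in 9 genes upward (12.1% of all features) and in 12 genes downward (13.7% of all features).

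Med20, Polr2g, Taf12 and Gtf2e1 passed at 1 h whichever of the 12 arrays was left out. The count of genes fell to 4 without brain dead donor graft 27 and 5 without living donor graft 24, against 3.74% and 3.91% of all features. It fell to 6 without brain dead donor graft 23, living donor graft 22 or living donor graft 25, against 5.61%, 3.32% and 3.01%. In each of these fits the share of all features was also under the 6.76% of the main fit. Brain dead donor graft 21 stood apart, with a mean correlation of 0.851 with its own group and 0.780 with the other arrays, both the lowest of the 12. Without it, 8 genes passed, against 4.36% of all features. After quantile normalization between arrays 3 genes passed, Med20, Taf12 and Polr2g, all lower, and none was higher, against 1.68% of all features. A fit of these 2 groups alone called 3 genes, against 2.31% of all features. Taf1d and Polr3e were higher in that fit and Med20 was lower.

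**Figure D1:**
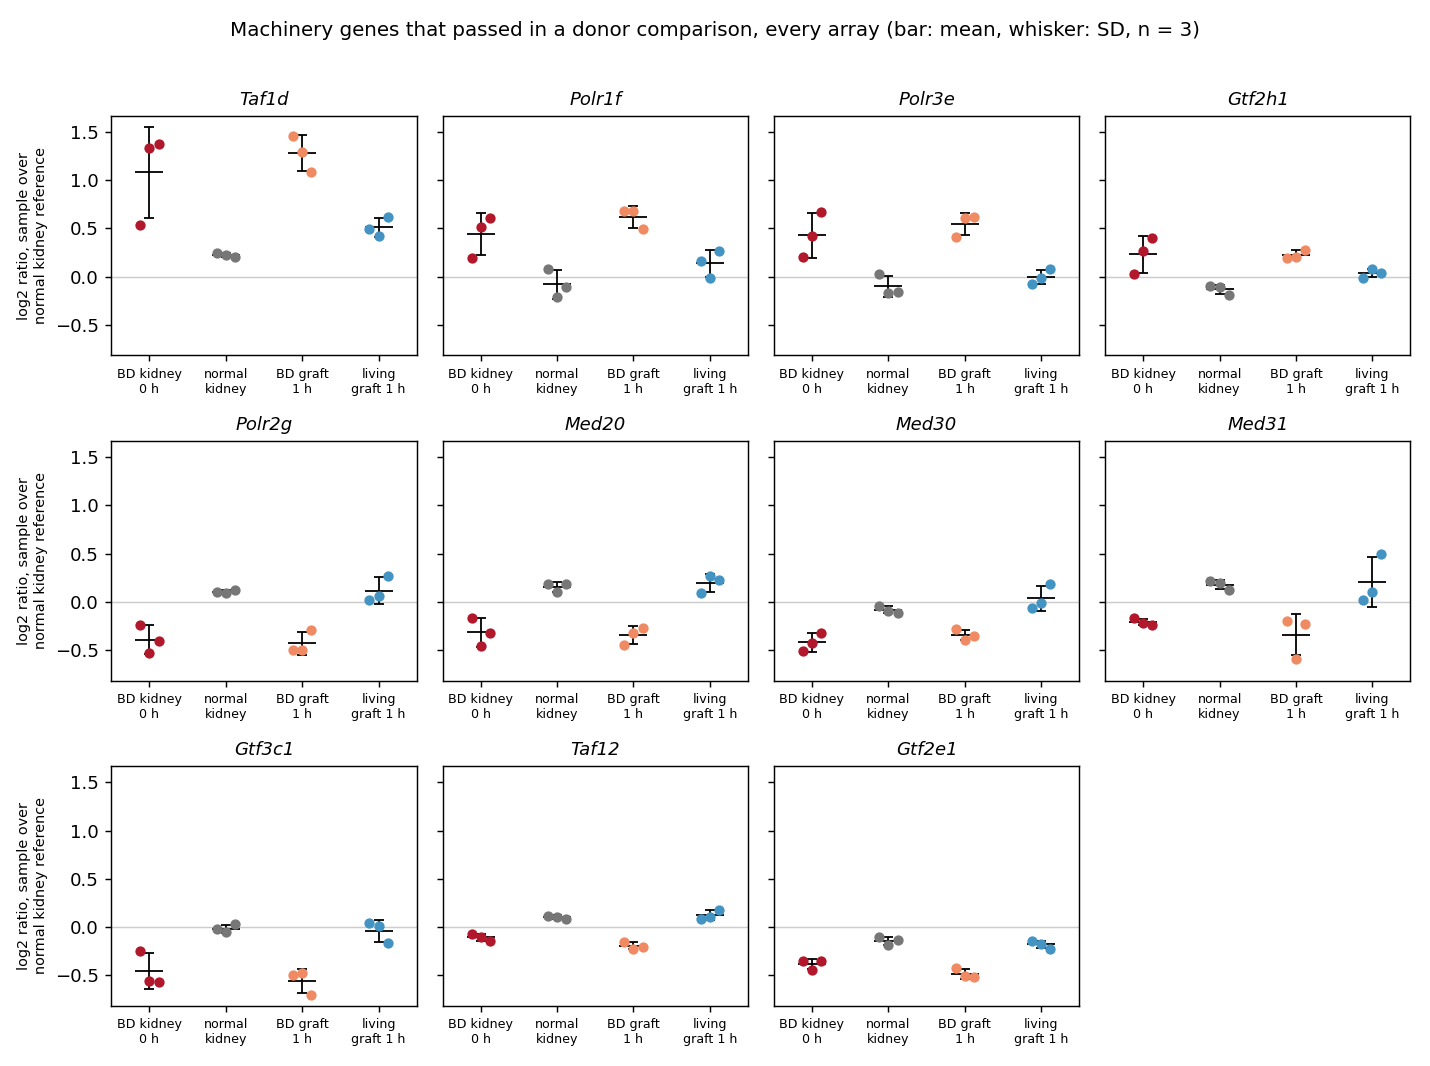
Log2 ratio of sample over the normal kidney reference (vertical axis) on every array for the machinery genes that differed with donor, by group (BD, brain dead). Points are arrays and bars are group means with SD (n = 3). Taf1d reached 1.33 and 1.38 in brain dead donor kidneys 2 and 3 and stayed at or below 0.24 in the 3 normal kidneys.

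Among the 15 RNA polymerase subunits measured, 2 were higher and 1 lower in each donor comparison, against 2.27% higher and 2.39% lower of all features at 0 h and 2.02% and 4.74% at 1 h. Polr2g encodes RPB7, which forms with RPB4 the stalk of polymerase II beside the RNA exit. Its log2 ratio was -0.24, -0.53 and -0.41 in brain dead donor kidneys, against 0.10, 0.09 and 0.13 in normal kidneys. It was -0.50, -0.50 and -0.30 in brain dead donor grafts, against 0.02, 0.06 and 0.27 in living donor grafts. In both comparisons every brain dead donor array lay below every array of the other group. The difference was -0.50 ± 0.09 (SE) at 0 h (limma adjusted p = 0.0201) and -0.55 ± 0.09 at 1 h (adjusted p = 0.0103). Its partner in the stalk, RPB4, is encoded by Polr2d, which differed by 0.15 ± 0.12 at 0 h and 0.28 ± 0.12 at 1 h and did not pass (adjusted p = 0.658 and 0.241).

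Polr1f encodes the RPA43 subunit, which sits in the corresponding stalk of polymerase I. It measured 0.20, 0.51 and 0.61 in brain dead donor kidneys, against 0.08, -0.21 and -0.10 in normal kidneys. At 1 h it measured 0.68, 0.68 and 0.49 in brain dead donor grafts, against 0.16, -0.01 and 0.26 in living donor grafts. The groups did not overlap, and brain dead donor kidney 1 was again the one nearest to normal. The differences were 0.52 ± 0.12 (adjusted p = 0.0425) and 0.48 ± 0.12 (adjusted p = 0.0447). The largest polymerase I subunit, Polr1a, had differences of 0.29 at 0 h and 0.24 at 1 h, and the second largest, Polr1b, of -0.25 at 0 h and -0.07 at 1 h. Neither passed.

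Polr3e encodes RPC5, a subunit that polymerase III does not share with the other polymerases. Its log2 ratio was 0.20, 0.42 and 0.67 in brain dead donor kidneys, against 0.03, -0.17 and -0.16 in normal kidneys. In brain dead donor grafts it was 0.42, 0.60 and 0.61, against -0.07, -0.01 and 0.07 in living donor grafts. All brain dead donor arrays lay above the arrays they were set against. The differences were 0.53 ± 0.11 (adjusted p = 0.0307) and 0.55 ± 0.11 (adjusted p = 0.0208). The other polymerase III subunits did not pass: Polr3k had differences of -0.35 at 0 h and -0.14 at 1 h, and Polr3gl had -0.04 and 0.07. Of the subunits that all 3 polymerases share, Polr2e had differences of 0.03 at 0 h and 0.11 at 1 h, Polr2f had -0.12 and -0.03, and Polr2h had -0.22 and -0.34, none past the threshold.

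Taf1d, a subunit of the SL1 factor that recruits polymerase I in human cells, was the machinery gene with the largest difference. It stood at 0.54, 1.33 and 1.38 in brain dead donor kidneys, against 0.24, 0.23 and 0.21 in normal kidneys. After transplantation it stood at 1.46, 1.29 and 1.09 in brain dead donor grafts, against 0.49, 0.42 and 0.62 in living donor grafts. Normal kidneys lay close together and brain dead donor kidney 1 lay well under the other two. The difference was 0.86 ± 0.19 at 0 h (adjusted p = 0.0378) and 0.77 ± 0.19 at 1 h (adjusted p = 0.0443). Both of its probes ran the same way, with 0.71 and 1.00 at 0 h and 0.64 and 0.90 at 1 h. Tested on their own, 1 of the 2 probes passed at each time. The other SL1 subunits did not follow: Taf1a had differences of 0.05 ± 0.23 at 0 h and 0.07 ± 0.23 at 1 h, and Taf1c had -0.02 ± 0.07 and 0.05 ± 0.07, none past the threshold.

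Gtf3c1, the largest TFIIIC subunit, was lower, while the other 3 TFIIIC genes measured did not pass in either comparison. Its values were -0.25, -0.56 and -0.57 in brain dead donor kidneys, against -0.02, -0.06 and 0.03 in normal kidneys. In brain dead donor grafts they were -0.49, -0.47 and -0.70, against 0.04, 0.01 and -0.17 in living donor grafts. The groups did not overlap at either time. The differences were -0.44 ± 0.10 (adjusted p = 0.0382) and -0.52 ± 0.10 (adjusted p = 0.0158). Gtf3c2 had differences of 0.04 at 0 h and 0.12 at 1 h, Gtf3c5 had 0.23 and 0.28, and Gtf3c6 had 0.21 and 0.03.

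Among 9 initiation factors of polymerase II, 1 was higher and 1 lower at 0 h, against 2.27% and 2.39% of all features. At 1 h 1 was lower, against 4.74% of all features, and in both comparisons the lower gene was Gtf2e1, which rests on 1 of its 4 probes. Gtf2h1 encodes a core subunit of TFIIH, the factor that opens promoter DNA and also serves in DNA repair. It measured 0.02, 0.26 and 0.41 in brain dead donor kidneys, against -0.10, -0.11 and -0.19 in normal kidneys. It measured 0.19, 0.21 and 0.28 in brain dead donor grafts, against -0.01, 0.08 and 0.04 in living donor grafts. The groups did not overlap at either time. The difference was 0.36 ± 0.08 at 0 h (adjusted p = 0.0423) and 0.19 ± 0.08 at 1 h, where it did not pass (adjusted p = 0.227). Whether the 2 differences were unequal was tested by the interaction of donor and time, which gave -0.17 ± 0.12 (adjusted p = 0.945).

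Gtf2e1 encodes the large subunit of TFIIE, which brings TFIIH to the promoter. Its 4 probes disagreed. The gene mean was -0.36, -0.45 and -0.35 in brain dead donor kidneys, against -0.10, -0.19 and -0.14 in normal kidneys, a difference of -0.24 ± 0.05 (adjusted p = 0.0263). At 1 h it was -0.43, -0.51 and -0.52 in brain dead donor grafts, against -0.15, -0.17 and -0.22 in living donor grafts, a difference of -0.30 ± 0.05 (adjusted p = 0.00866). Probe 1 carried nearly all of it. It read -0.59, -1.37 and -1.09 in brain dead donor kidneys, against 0.11, -0.23 and -0.17 in normal kidneys. It read -1.45, -1.75 and -1.40 in brain dead donor grafts, against -0.33, -0.33 and -0.07 in living donor grafts. On that probe the differences were -0.92 and -1.29, and on the other 3 probes they lay between -0.07 and 0.12. The call of Gtf2e1 thus describes 1 probe of 4, and which transcript each probe reads was not examined.

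Gtf2h3, another core subunit of TFIIH, showed the same split between its 2 probes. Probe 2 read -0.48, -1.28 and -1.01 in brain dead donor kidneys, against 0.16, -0.25 and -0.07 in normal kidneys. It read -1.46, -1.01 and -1.01 in brain dead donor grafts, against -0.28, -0.30 and 0.23 in living donor grafts. Its differences were -0.87 and -1.04, while probe 1 gave 0.07 and 0.10. The gene mean did not pass at either time (-0.40 ± 0.13, adjusted p = 0.122, and -0.47 ± 0.13, adjusted p = 0.061). Gtf2b, the factor that bridges TBP and the polymerase, had differences of 0.13 at 0 h and 0.18 at 1 h and did not pass. Of the 67 genes, 43 have 1 probe only, so probe agreement could not be looked at for them.

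**Figure D2:**
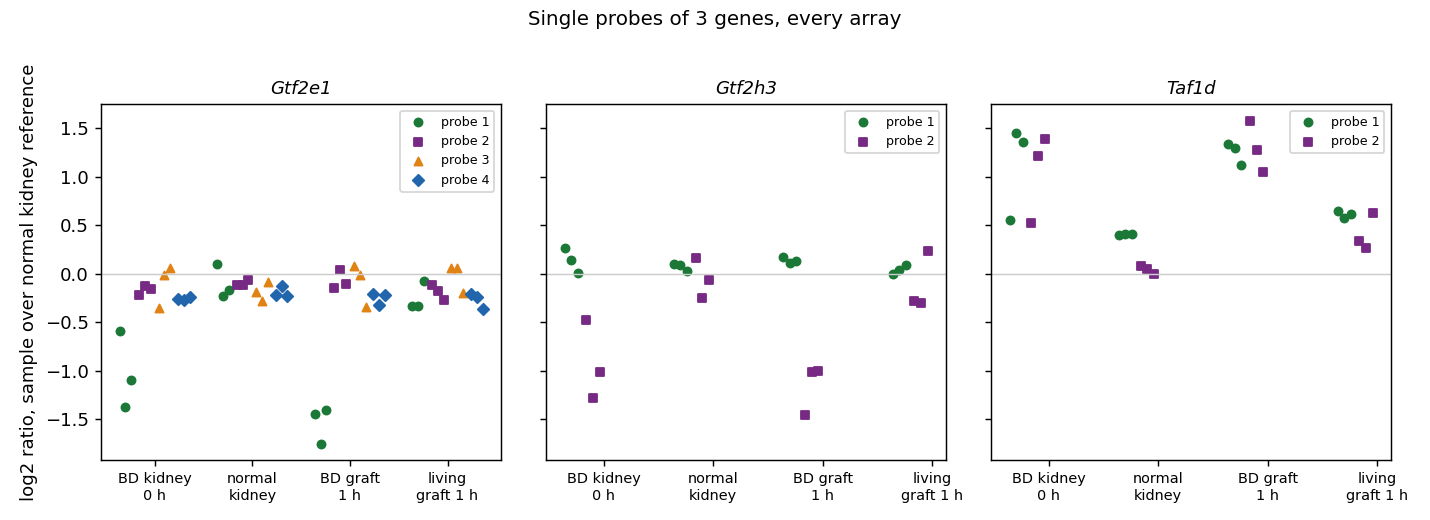
Log2 ratio of sample over the normal kidney reference (vertical axis) on every array for the single probes of Gtf2e1, Gtf2h3 and Taf1d, by group (BD, brain dead). Probe 1 of Gtf2e1 and probe 2 of Gtf2h3 were low on the brain dead donor arrays while their other probes lay between -0.36 and 0.26, and both probes of Taf1d were high.

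Of the 10 TFIID subunits measured, 9 lay below 0 in each donor comparison, against 9352 of all 18478 features at 0 h and 8588 at 1 h. In each, 1 passed as lower, Taf12, against 2.39% of all features at 0 h and 4.74% at 1 h. The median of the 10 was -0.11 at 0 h and -0.12 at 1 h. The gene above 0 was Taf9b at 0 h and Taf1 at 1 h. In living donor grafts against normal kidneys 8 of the 10 lay below 0 (median -0.09), against 9645 of all features. In brain dead donor grafts against brain dead donor kidneys 7 did (median -0.06), against 9417 of all features. Lying mostly below 0 was thus not particular to the donor comparisons. Taf12 encodes a histone-fold subunit that TFIID shares with the coactivator complex SAGA. It measured -0.07, -0.11 and -0.15 in brain dead donor kidneys, against 0.12, 0.11 and 0.08 in normal kidneys. It measured -0.16, -0.23 and -0.20 in brain dead donor grafts, against 0.09, 0.11 and 0.18 in living donor grafts. Replicates were tight and the groups did not overlap. The differences were -0.21 ± 0.05 (adjusted p = 0.0329) and -0.32 ± 0.05 (adjusted p = 0.00537), the smallest differences in size among the genes called at 0 h and close to the smallest at 1 h. Both probes of Taf12 had differences below 0 at both times. Tested on their own, neither probe passed at 0 h and both passed at 1 h.

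Other TFIID subunits came near the threshold at 1 time without passing. Taf8 had -0.46 ± 0.12 at 0 h (adjusted p = 0.0644) and -0.20 ± 0.12 at 1 h (adjusted p = 0.395). Taf6 had -0.15 ± 0.07 at 0 h (adjusted p = 0.284) and -0.24 ± 0.07 at 1 h (adjusted p = 0.0715). The largest subunit, Taf1, had differences of -0.01 at 0 h and 0.10 at 1 h, and Taf2 had 0.00 and -0.01. Neither SAGA TAF-like gene passed: Taf5l1 had differences of 0.32 ± 0.13 at 0 h and 0.36 ± 0.13 at 1 h, and Taf6l had 0.23 ± 0.36 and -0.12 ± 0.36.

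Mediator gave 2 lower genes of 20 at 0 h, against 2.39% of all features, and 3 at 1 h, against 4.74% of all features, and no higher one. The median of the 20 was -0.03 at 0 h and -0.04 at 1 h. Med20 belongs to the head module and pairs there with Med18. Its log2 ratio was -0.17, -0.46 and -0.33 in brain dead donor kidneys, against 0.19, 0.10 and 0.19 in normal kidneys. In brain dead donor grafts it was -0.45, -0.32 and -0.27, against 0.09, 0.27 and 0.23 in living donor grafts. All brain dead donor arrays were below 0 and all arrays of the other groups were above it. The difference was -0.47 ± 0.08 (adjusted p = 0.0159) at 0 h and -0.54 ± 0.08 (adjusted p = 0.00728) at 1 h. Med18 had differences of -0.31 ± 0.15 at 0 h and -0.42 ± 0.15 at 1 h and did not pass (adjusted p = 0.331 and 0.139).

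Med30, a head subunit found in animals and not in budding yeast, measured -0.51, -0.43 and -0.32 in brain dead donor kidneys, against -0.04, -0.09 and -0.11 in normal kidneys. It measured -0.29, -0.40 and -0.35 in brain dead donor grafts, against -0.06, -0.01 and 0.18 in living donor grafts. The groups were apart, with living donor graft 25 the highest array. The differences were -0.34 ± 0.07 (adjusted p = 0.0329) and -0.38 ± 0.07 (adjusted p = 0.0164). Med31, a small subunit of the middle module, measured -0.17, -0.22 and -0.24 in brain dead donor kidneys, against 0.22, 0.20 and 0.12 in normal kidneys. It measured -0.20, -0.59 and -0.23 in brain dead donor grafts, against 0.02, 0.10 and 0.50 in living donor grafts. The grafts spread widely, with brain dead donor graft 23 lowest and living donor graft 25 highest. Med31 passed at 1 h (-0.55 ± 0.13, adjusted p = 0.036) and not at 0 h (-0.39 ± 0.13, adjusted p = 0.134). The interaction was -0.16 ± 0.18 (adjusted p = 0.958), so a change between the times was not shown.

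None of the 5 tail genes and the 1 kinase module gene measured passed, against 4.65% of all features at 0 h and 6.76% at 1 h. With so few genes this does not set the modules apart. Med1, the middle subunit through which nuclear receptors act, had -0.06 ± 0.09 at 0 h and -0.06 ± 0.09 at 1 h, with 95% intervals of -0.25 to 0.13 and -0.25 to 0.13. Med14, the backbone subunit that joins the modules, had 0.00 at 0 h and -0.04 at 1 h. Med13, of the kinase module, had -0.38 ± 0.21 at 0 h and -0.16 ± 0.21 at 1 h. Over all 67 genes, the 95% interval lay within 0.5 log2 units of 0 for 45 genes in each donor comparison, so for the rest differences of that size were not excluded.

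**Figure D3:**
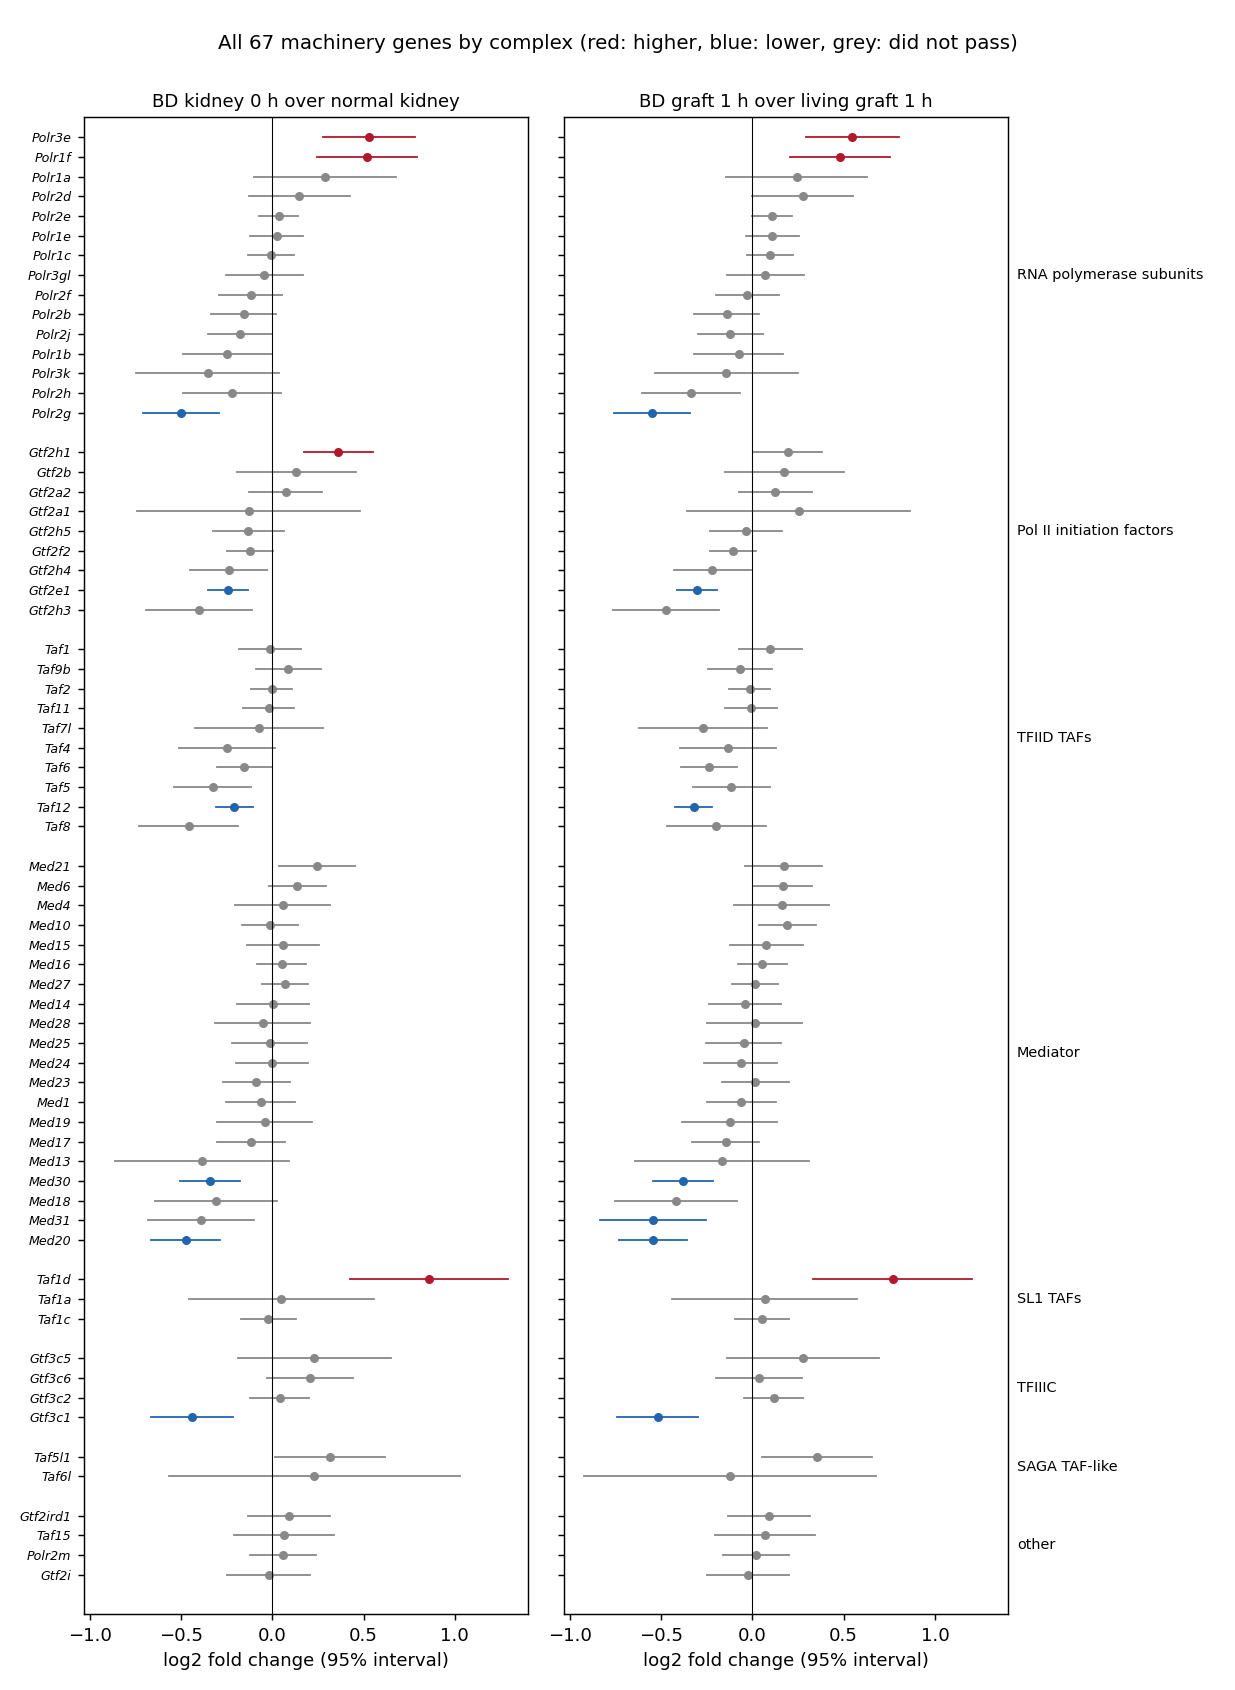
Log2 fold change with its 95% interval (horizontal axis) of all 67 machinery genes by complex, for brain dead (BD) donor kidneys over normal kidneys at 0 h and brain dead donor grafts over living donor grafts at 1 h. Red marks genes that were higher and blue genes that were lower at an adjusted p under 0.05, and no estimate reaches 1 in either direction.

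The 2 donor comparisons use different arrays, though they share the Cy5 pool and the estimate of spread. Of the 10 genes called at 0 h and the 10 called at 1 h, 9 were the same, in the same direction, which is 90% of each list. Over all features, 491 were called at both times, 57.1% of those at 0 h and 39.3% of those at 1 h. The direction was the same at both times for 56 of 67 genes (83.6%), against 66.5% of all features. Among the 56 genes called at neither time it was the same for 45 (80.4%). Across the 67 genes the differences at 0 h and 1 h correlated with r = 0.888, against 0.543 across all features. Across the 56 genes called at neither time r was 0.754. All features include the unnamed probes, and agreement was not computed for named genes alone or for all features called at neither time. Genes are not independent replicates, and this is a description.

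**Figure D4:**
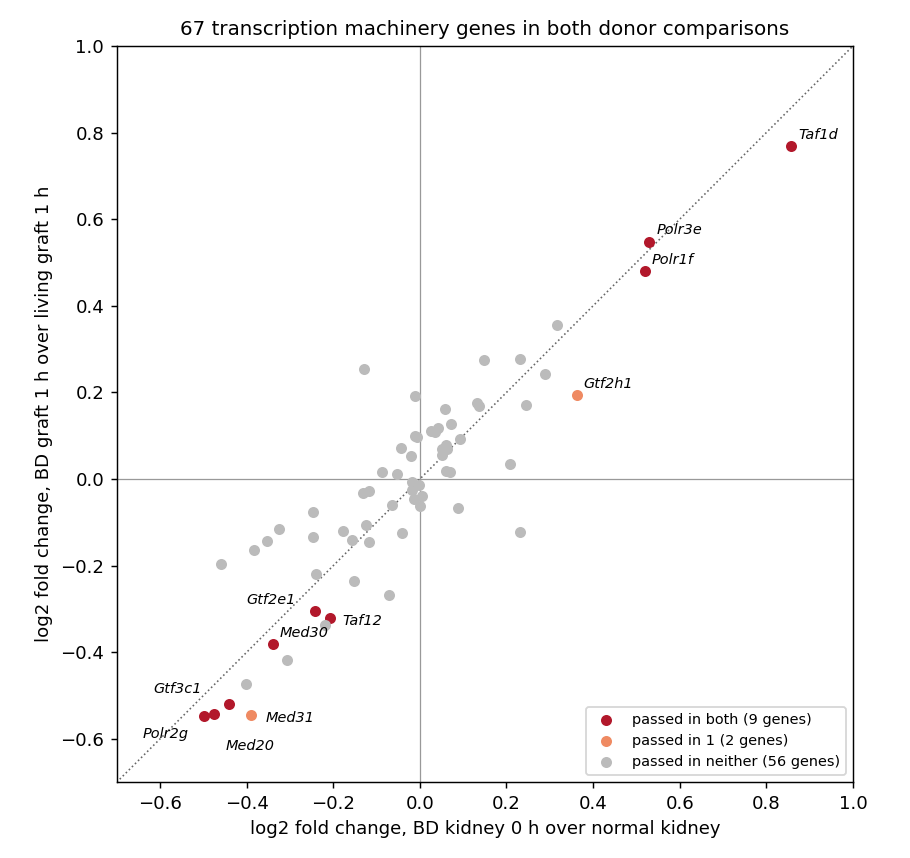
Log2 fold change of the 67 machinery genes in brain dead (BD) donor kidneys over normal kidneys at 0 h (horizontal axis) and in brain dead donor grafts over living donor grafts at 1 h (vertical axis). The dotted line marks equal values, and the 9 genes called in both comparisons lie near it.

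The donor difference averaged over both times, 6 brain dead donor arrays against 6 normal or living donor arrays, was added after these values were seen. It called 17 of the 67 genes (25.4%), against 14.5% of all features. Higher were 5 genes, against 5.68% of all features, and lower were 12, against 8.85%. Beside the 11 genes called at 0 h or 1 h it called Gtf2h3, Taf6, Taf8, Taf5l1, Gtf2h4 and Med18. As with Gtf2h3, Taf5l1 rests on 1 of its 2 probes, with differences of 0.70 at 0 h and 0.70 at 1 h on 1 probe and of -0.07 and 0.01 on the other. Med20 had the smallest p, with -0.51 ± 0.06 (limma adjusted p = 0.00079), and Taf12 followed with -0.26 ± 0.03 (adjusted p = 0.000898). Taf1d had 0.81 ± 0.14 (adjusted p = 0.00392) and Polr3e 0.54 ± 0.08 (adjusted p = 0.00219). Whichever array was left out, 12 genes passed: the 11 and Gtf2h3. The count ranged from 12 to 21, against 10.4% to 14.9% of all features.

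The comparisons over transplantation gave no call among these genes and few among all features, so 0 of 67 does not set the machinery genes apart. When living donor grafts were set against normal kidneys, 0 of 67 machinery genes passed in limma, against 0.731% of all features (0.541% higher and 0.189% lower). At an unadjusted p under 0.05 there were 4 (Med21, Polr1b, Med27 and Med23), 5.97% of the genes, against 10.9% of all features. Med21, a middle subunit, came nearest with 0.26 ± 0.09 (adjusted p = 0.338). The 95% interval lay within 0.5 log2 units of 0 for 59 of the 67 genes. Taf1d had 0.28 ± 0.19 and Polr2g 0.01 ± 0.09 in this comparison, and neither passed. Replicates did not overlap in 6 genes upward (8.83% of all features) and 6 downward (9.66% of all features).

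When brain dead donor grafts were set against untransplanted kidneys of brain dead donors, 0 of 67 genes passed in limma, against 0.0541% of all features (0.0379% higher and 0.0162% lower), a share that was itself near 0. At an unadjusted p under 0.05 there were 4 genes (Polr1c, Med10, Taf9b and Med24), 5.97%, against 13.1% of all features. Polr1c, a subunit of both polymerase I and polymerase III, measured 0.45, 0.49 and 0.53 in brain dead donor grafts, against 0.22, 0.23 and 0.37 in brain dead donor kidneys. The grafts were all higher than the kidneys, and the difference was 0.22 ± 0.06 (adjusted p = 0.191). The interval lay within 0.5 log2 units of 0 for 60 genes. Replicates did not overlap in 5 genes upward (9.04% of all features) and 4 downward (9.78% of all features). These 2 comparisons share a group with each donor comparison and are not independent of them. Every alternative run gave 0 machinery genes in both.

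The interaction of donor and time called 0 of the 67 genes and 0 of all features in limma. At an unadjusted p under 0.05 there were 0 of the 67 genes, against 5.22% of all features, and every alternative run also called 0 machinery genes. The genes with the smallest p were Med10 (0.20 ± 0.10), Taf12 (-0.11 ± 0.06), Taf5 (0.21 ± 0.13), Taf8 (0.26 ± 0.17) and Gtf2h1 (-0.17 ± 0.12), with adjusted p-values from 0.94 to 0.945. The median SE of this contrast was 0.13, against 0.09 for a comparison of 2 groups, so it is the least precise of the 5.

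**Figure D5:**
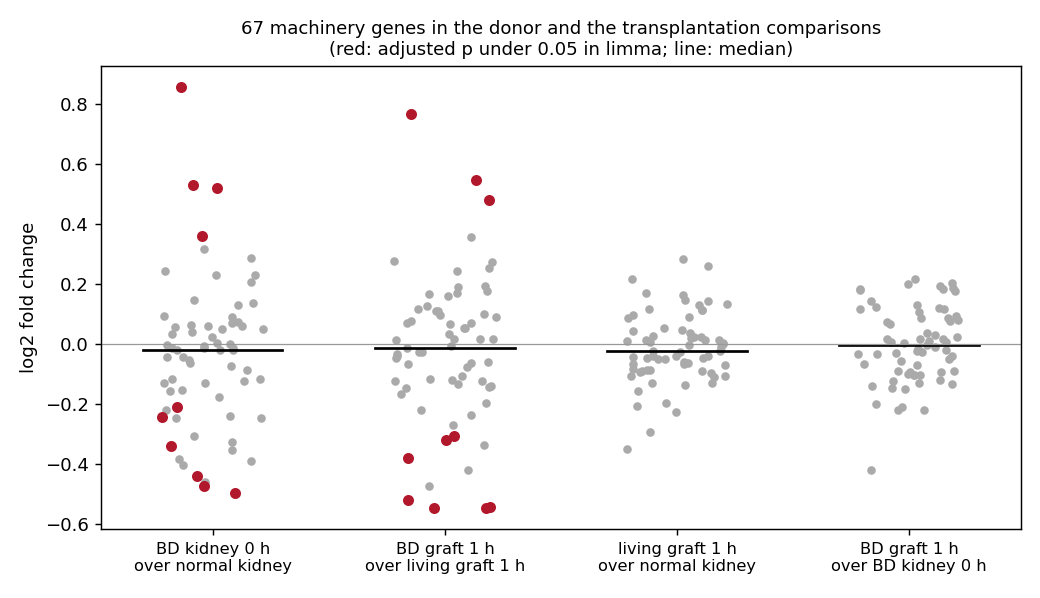
Log2 fold change (vertical axis) of the 67 machinery genes in 4 comparisons (BD, brain dead). Each point is a gene, red points passed at an adjusted p under 0.05 and the line is the median. Red points occur in the 2 donor comparisons only, 10 in each, and all 4 medians lie near 0. Of all features, 0.731% passed for living donor grafts over normal kidneys. For brain dead donor grafts over brain dead donor kidneys, 0.0541% did.

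A further 53 genes of transcription that the symbol rule does not take in were looked up, such as TBP, elongation factors and mitochondrial transcription factors. The TFIIH kinase itself, Cdk7, was among those not found, and 33 were measured. At 0 h 1 was higher, against 2.27% of all features, and none lower. At 1 h 1 was lower, against 4.74% of all features, and none higher. These counts are near those of all features. Ccnh, the cyclin of the TFIIH kinase, was higher at 0 h by 0.23 ± 0.06 (adjusted p = 0.0492), and passed in 1 of the 12 fits with an array left out. Larp7, which holds the inhibitory 7SK RNA of the elongation kinase, was lower at 1 h, with a difference of -0.28 ± 0.05 (adjusted p = 0.0140), and lost the call without living donor graft 22 or 24. The medians of the 33 were 0.02 at 0 h and 0.05 at 1 h. No gene of this list passed in the other comparisons.

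Single markers of some cell types also passed in a donor comparison, where 4.65% of all features passed at 0 h and 6.76% at 1 h. Of 4 neutrophil markers 1 passed at 0 h, S100a9, by 3.47 ± 0.50 (adjusted p = 0.00729), with the 4 ranging from 0.13 to 3.47. At 1 h none of the 4 passed and S100a9 had 1.78 ± 0.50 (adjusted p = 0.0652). Of 5 endothelial markers Pecam1 was higher at 0 h by 0.29 ± 0.06 (adjusted p = 0.0263), while the median of the 5 was -0.38 at 0 h and -0.50 at 1 h. Among 5 T and NK cell markers Gzma was higher at 0 h by 0.82 ± 0.15 (adjusted p = 0.0189) and Cd3d at 1 h by 0.21 ± 0.05 (adjusted p = 0.0352). The 5 ranged from -0.02 to 0.82 at 0 h and from -0.18 to 0.21 at 1 h. Of 2 podocyte markers, Podxl was lower at 1 h, with a difference of -0.61 ± 0.14 (adjusted p = 0.0346). The other, Synpo, had 0.10 ± 0.05 at 1 h and did not pass (limma adjusted p = 0.305). None of 4 proximal tubule markers passed, with medians of -0.03 at 0 h and -0.06 at 1 h, and none of the markers of other tubule segments, collecting duct, monocytes, B cells or red blood cells passed in either donor comparison. The part of these shifts in the machinery genes was not tested.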

How the data were processed

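RNA of 12 rat kidneys or grafts was hybridised with a common Cy5 reference on 2-colour Agilent arrays. Per the labels' design text, the authors extracted spots with Agilent Feature Extraction, normalized them in GeneSpring 7.0 with lowess and used the Cy3 over Cy5 ratio. The deposited table was taken to hold log10 ratios because its highest value is 2, and was multiplied by 3.322 to give log2 ratios. The direction rests on the design text. Intensities were not used, so dim spots were not weighed, and no slide or scan batch is known here. The number of arrays limits the precision.

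Groups were read from the titles; a description repeated on all arrays contradicts 9 of them and was set aside. The design text speaks of individual grafts and says no more of the animals, so p-values cover the spread between these samples, which may be technical. Symbols came from the platform annotation, and all 67 machinery genes matched RefSeq (GRCr8).

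A model of 4 group means was fitted in limma 3.58.1 (R 4.3.3) over all 12 arrays, with 8 residual and 1.89 prior degrees of freedom, and was tested on simulated data. P-values were adjusted with Benjamini-Hochberg over 18478 features, threshold 0.05. Named genes are the machinery genes that passed, those with the smallest or largest p in a subcomplex and, after their values were seen, others. Members, lists and tests were chosen with earlier results of these data known. Alternatives were quantile normalization, median centring, single probes, zeros as missing, array weights, named genes only, fits of 2 groups, a replicate block and leaving out each array.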

Additional observations from a re-analysis of the deposited data

How the results depend on the processing

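Counts are given for machinery genes and then for all features. At 0 h (10 and 860 called) array weights gave 21 and 2852, a fit of the 2 groups alone 1 and 350, and a replicate block in that fit 0 and 2. Same-numbered brain dead donor and normal kidneys deviated together with r of 0.33, 0.10 and 0.03, and not every kidney correlated best with its own number, so the numbers were not taken as pairs. Leaving out each array gave 0 to 16 and 165 to 1186. At 1 h (10 and 1249) quantile normalization gave 3 and 310, the 2 groups alone 3 and 427, and leaving out each array 4 to 15 and 557 to 1526. Living donor grafts against normal kidneys (0 and 135) had 483 features with array weights, and 0 and 33 to 210 with an array left out. Brain dead donor grafts against brain dead donor kidneys (0 and 10) had 0 after quantile normalization, 68 with array weights, 0 in the 2 groups alone, and 0 and 0 to 14 with an array left out. The interaction (0 and 0) had 3 with array weights, and 0 and 0 to 4 with an array left out. The difference averaged over both times, added after the data were seen (17 and 2685), had 12 to 21 and 1924 to 2750. When the 9653 named genes alone were tested, 813 of them passed at 1 h, against 706 of them in the test over all features. In living donor grafts against normal kidneys 86 passed, against 75, in brain dead donor grafts against brain dead donor kidneys 6, against 5, and in the interaction 1, against 0. Per gene, no gene that passed changed direction, but single probes of some, among them Gtf2e1, Gtf2h3 and Taf5l1, lay on the other side of 0. The cause of each shift was not tested.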
